A study of Mus musculus with 20 samples.

Results

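H3K27ac, the acetylation of histone H3 that marks active promoters and enhancers, was examined at 45 genes of DNA replication and mitosis. The genes were chosen by function from a written list, and all 45 were found among the 21887 protein-coding genes of the mouse GRCm38 annotation. The study mapped the mark by ChIP-seq, the sequencing of DNA bound to immunoprecipitated chromatin, in RAW264.7 cells, a mouse macrophage line of monocytic origin that RANKL, the osteoclast-inducing cytokine, can drive towards osteoclasts. Cells were given RANKL at 50 ng/ml together with I-BET, an inhibitor of the BET bromodomain proteins, at 500 nM (3 lists of peaks), RANKL alone at 50 ng/ml (3 lists), I-BET alone at 500 nM (1 list, numbered 3) or neither (Untreated, 3 lists), with treatments of 4 h. All groups are the same established line in DMEM, and the labels name no separate cultures, so the spread between replicates may be technical.

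Cells that commit to division switch on replication genes at the border of G1 and S phase, where E2F transcription factors bind their promoters once the pocket proteins that hold them back have been phosphorylated by cyclin-dependent kinases. Mitotic genes follow in G2, through promoter elements called CHR and CCAAT boxes that are read by the DREAM and MYB complexes and by NF-Y. Proliferating macrophage precursors carry this programme until they leave the cycle and fuse into osteoclasts, and BET proteins bind acetylated histones at active promoters and support their transcription.

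Lists differed in length before any gene was considered. They held 6041 to 17794 peaks and 3.44 to 25.9 Mb, apart from RANKL replicate 2, which held 141905 peaks and 184.6 Mb. That list placed gene-end peaks at 10 of 10 lymphocyte markers, 5 of 10 fibroblast and osteoblast markers and 8 of 10 markers of tissues absent from the culture, where every other list had 0 or 1. RANKL+I-BET replicate 2 was the shortest list and its lowest -log10 q was 2.00. Macrophage markers carried gene-end peaks at 7 to 10 of 10 genes in every list. Lists numbered 2 are therefore given with the others but kept out of the group comparisons unless stated. The lists give no read counts, so depth is unknown, and in a bulk sample fewer acetylated cells and less acetylation per cell cannot be told apart.

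Replication and mitosis genes carried H3K27ac at their ends in nearly all lists. A peak that reached within 1 kb of either end, here called a gene-end peak, was present at 43, 16 and 41 of 45 members in RANKL+I-BET replicates 1, 2 and 3. It was present at 44 members in each of the 3 RANKL lists, at 39 with I-BET alone and at 29, 25 and 43 in Untreated replicates 1, 2 and 3. The lists numbered 2 apart, Untreated replicate 1 was thus the list with the fewest members, and Untreated replicate 3 lay within the range of the treated lists. As shares these were 95.6%, 35.6% and 91.1% with RANKL+I-BET, 97.8% in each RANKL list, 86.7% with I-BET and 64.4%, 55.6% and 95.6% in Untreated cells. Over all protein-coding genes the shares were 41.7%, 17.3% and 36.7% with RANKL+I-BET, 41.5%, 74.0% and 41.8% with RANKL, 34.8% with I-BET and 32.5%, 27% and 37.7% in Untreated cells. The member share stood above the share of all genes in each of the 10 lists.

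**Figure D1:**
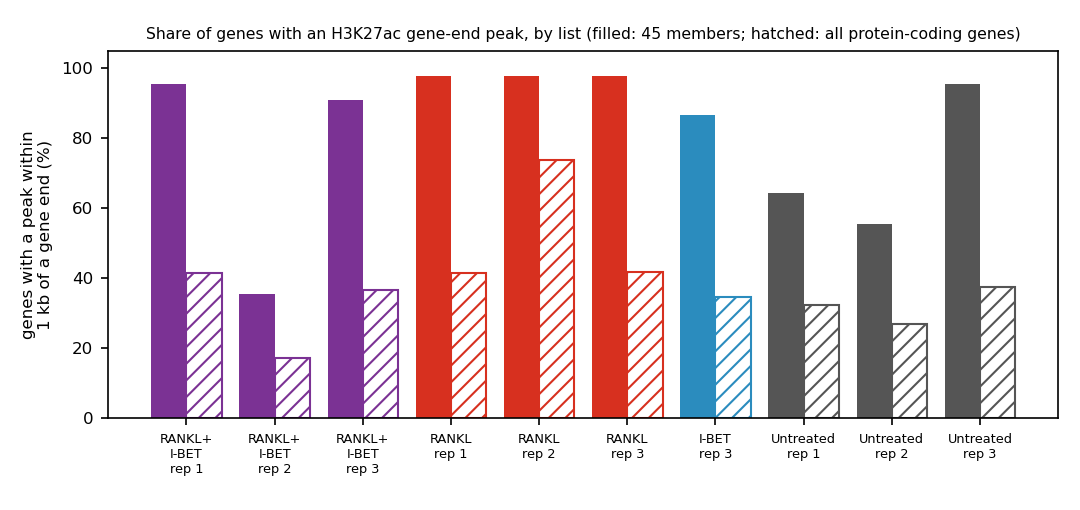
Percent of genes (vertical axis) with an H3K27ac gene-end peak in each of the 10 lists, as filled bars for the 45 members and hatched bars for all 21887 protein-coding genes. The filled bars reach 86.7% to 97.8% in the treated lists other than RANKL+I-BET replicate 2, against 64.4%, 55.6% and 95.6% in the Untreated lists.

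Presence was broad, and peak strength lay near that of other genes. The deposited fold enrichment of the strongest gene-end peak, the peak caller's ratio of signal over local background, had medians over members of 3.54, 4.54 and 2.42 with RANKL+I-BET, 2.96, 2.39 and 2.77 with RANKL, 2.72 with I-BET and 2.77, 2.59 and 2.46 in Untreated cells. Over all genes with such a peak the medians were 3.52, 4.67 and 2.51 with RANKL+I-BET, 3.18, 2.16 and 2.60 with RANKL, 2.56 with I-BET and 2.66, 2.47 and 2.43 in Untreated cells. A member's peak ranked on average near the middle of its list, with median percentiles of 40.4 to 62.4. These folds belong to the authors' lists and rank peaks within a list.

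Presence was then compared gene by gene. In all 10 lists a gene-end peak was held by 13 members (28.9%), against 13.6% of all protein-coding genes. These were the clamp gene Pcna, the helicase genes Mcm5 and Cdc45, the loader gene Cdt1, the reductase gene Rrm1, the transcription factor genes E2f1 and E2f3, the pocket protein gene Rbl1 and the mitotic genes Aurka, Aurkb, Birc5, Kif11 and Mki67. In the 7 lists not numbered 2, 26 members (57.8%) held one throughout, against 27% of all genes.

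Presence varied within the RANKL+I-BET and Untreated groups. There, 27 members were held by some but not all RANKL+I-BET lists and 24 by some but not all Untreated lists. For RANKL this was 0 members. RANKL+I-BET replicate 2 held 16 members, against 43 and 41 in replicates 1 and 3. No share of all genes is given for these counts. Of the 45 members, 16 had no gene-end peak in Untreated replicate 1, and of those 16, 15 had one in RANKL+I-BET replicate 1, 15 in each of RANKL replicates 1 and 3, 12 with I-BET and 14 in Untreated replicate 3. Of the 14784 protein-coding genes without one in Untreated replicate 1, 14.7% had one in RANKL+I-BET replicate 1, 14.6% and 15.2% in RANKL replicates 1 and 3, 9.03% with I-BET and 11.4% in Untreated replicate 3. Absence in replicate 1 was thus filled in by another Untreated list at nearly as many members as by the RANKL lists. The gene-end peaks of members were also narrow in Untreated replicates 1 and 2, with median widths of 771 and 755 bp, against 1478 bp in Untreated replicate 3 and 1425.5 and 1652 bp in RANKL replicates 1 and 3. The part of list quality in these absences was not tested.

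Covered length was also read gene by gene. The length covered by peaks within 25 kb of the gene, its body included, had medians over members of 2.76, 0.277 and 2.34 kb in the RANKL+I-BET lists, 3.02, 12.4 and 2.75 kb in the RANKL lists, 2.41 kb with I-BET and 1.47, 0.699 and 2.29 kb in Untreated cells. All genes had medians of 0.942, 0 and 0.684 kb in the RANKL+I-BET lists, 0.949, 8.78 and 1.04 kb in the RANKL lists, 0.556 kb with I-BET and 0.336, 0 and 0.676 kb in Untreated cells. Members covered more than the typical gene in every list. Over the 6 lists numbered 1 and 3, a median of 41.8% of a member's covered length lay within 1 kb of its own ends, and 39 members had another gene within 25 kb.

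**Figure D2:**
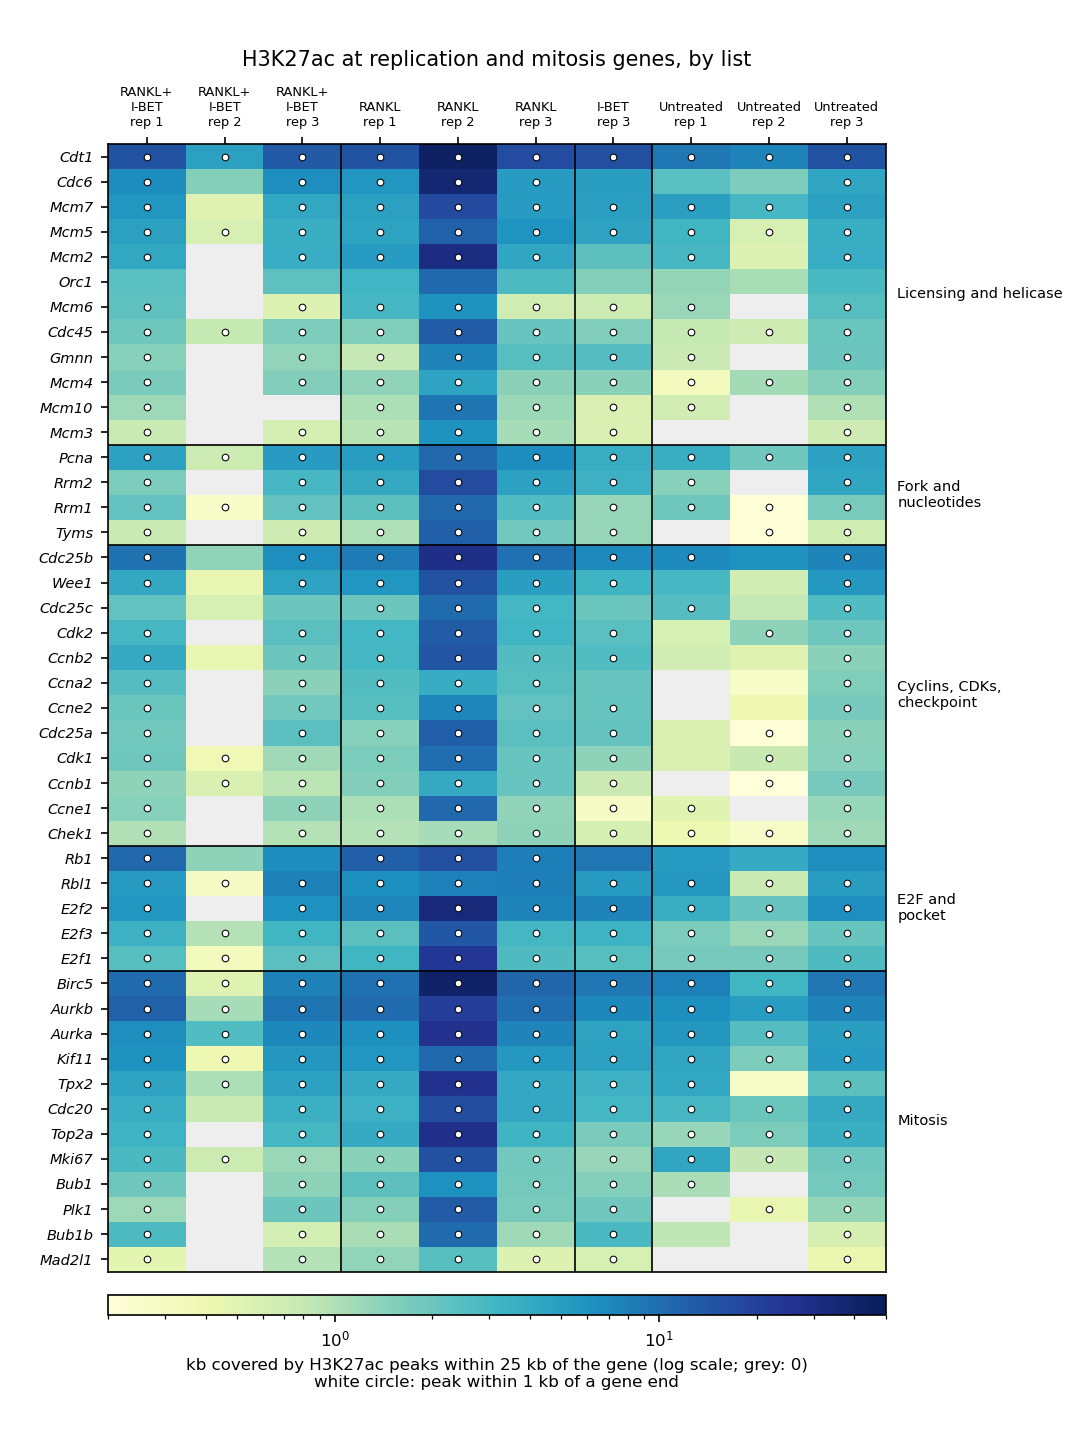
Kilobases covered by H3K27ac peaks within 25 kb of each of the 45 genes (rows, by role and mean length) in each list (columns), on a log colour scale with grey for 0; white circles mark gene-end peaks. Circles are missing mainly in RANKL+I-BET replicate 2 (16 circles) and in Untreated replicates 1 and 2 (29 and 25 circles).

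Where the mark sits was read from the 36 members with a start in the RefSeq promoter table. A peak lay within 1 kb of the start at 36, 14 and 35 of them with RANKL+I-BET, 36 in each RANKL list, 34 with I-BET and 25, 24 and 36 in Untreated cells. Coverage was highest 100 to 300 bp downstream of the start in 8 of the 10 lists. The highest coverage thus lay just inside the transcribed region. At its highest position it reached 100% of the 36 starts in RANKL+I-BET replicate 1, 97.2% in RANKL+I-BET replicate 3, 100% and 97.2% in RANKL replicates 1 and 3, 88.9% with I-BET and 41.7% and 97.2% in Untreated replicates 1 and 3. The same maximum over 17492 genes was 39.0% and 34.3% in RANKL+I-BET replicates 1 and 3, 38.7% and 39.9% in RANKL replicates 1 and 3, 31.1% with I-BET and 21.3% and 35.3% in Untreated replicates 1 and 3. Coverage of over 50% of member starts ran from 500 bp upstream to 900 bp downstream in RANKL replicate 1, and it was reached at no position in Untreated replicate 1. Untreated replicates 1 and 3 thus lay further from each other than RANKL replicates 1 and 3 did.

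**Figure D3:**
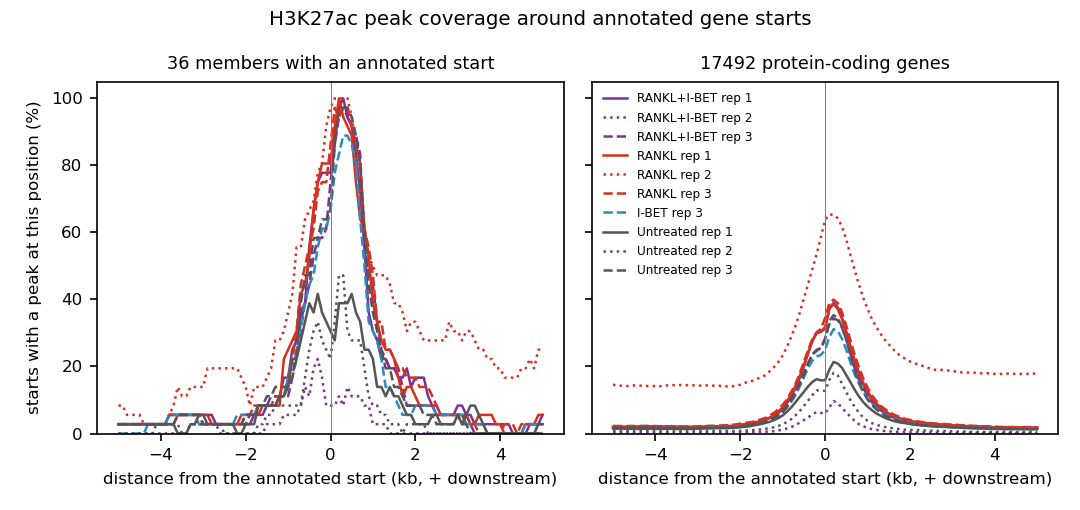
Percent of annotated starts covered by a peak (vertical axis) against distance from the start in kb (horizontal axis), with 1 line per list, for 36 members (left) and 17492 protein-coding genes (right). The member lines of RANKL replicates 1 and 3 peak at 100% and 97.2%, and those of Untreated replicates 1 and 3 at 41.7% and 97.2%.

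The promoters were searched for the elements of each cell cycle class. Each window ran from 250 bases before to 50 after the start (RefSeq, GRCm38.p6) and was read on both strands for E2F elements (TTTCCCGC, TTTGGCGC or TTTCGCGC), the CHR element (TTTGAA) and the CCAAT box of NF-Y (CCAAT). An E2F element was found at 13 of 36 members (36.1%) and at 2.76% of 17492 genes. By role, it was found at 7 of 10 licensing and helicase genes, 3 of 4 E2F and pocket protein genes, 3 of 8 cyclin and kinase genes, 0 of 4 fork genes and 0 of 10 mitotic genes. The 3 in the cyclin and kinase group were Cdc25a, Cdk1 and Cdk2, and none of the cyclin promoters searched (Ccnb1, Ccnb2 and Ccne1) held one. A CHR element was found at 13 of 36 members (36.1%) and 18.5% of all genes, with 7 of 10 mitotic genes and 2 of 10 licensing genes. A CCAAT box was found at 27 of 36 members (75.0%) and 42.3% of all genes, with 8 of 10 in each of those role groups. A match describes letters in the window and not a bound site.

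The promoters of 3 licensing and helicase genes are shown for their E2F elements, each as the 250 bases before the start, read along the gene's strand, with elements in capitals. Mcm5 (chr8:75109259-75109508, plus strand) and Mcm6 (chr1:128359706-128359955, minus strand) encode subunits of the replicative helicase, and Orc1 (chr4:108579204-108579453, plus strand) encodes the largest subunit of the origin recognition complex. In Mcm5 and Mcm6 E2F elements on opposite strands overlap in 1 run of capitals, and the 5-letter runs are CCAAT boxes read on either strand.
Mcm5: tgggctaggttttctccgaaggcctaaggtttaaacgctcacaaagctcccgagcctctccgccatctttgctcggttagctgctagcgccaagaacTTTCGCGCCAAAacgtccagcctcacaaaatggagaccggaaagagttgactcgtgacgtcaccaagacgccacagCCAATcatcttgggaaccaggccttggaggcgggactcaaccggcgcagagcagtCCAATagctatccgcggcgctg
Mcm6: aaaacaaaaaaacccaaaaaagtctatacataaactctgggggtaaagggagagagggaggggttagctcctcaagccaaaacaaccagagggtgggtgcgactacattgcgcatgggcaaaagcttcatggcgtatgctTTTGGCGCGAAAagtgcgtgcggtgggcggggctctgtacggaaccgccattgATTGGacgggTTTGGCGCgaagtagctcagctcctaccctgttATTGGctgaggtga
Orc1: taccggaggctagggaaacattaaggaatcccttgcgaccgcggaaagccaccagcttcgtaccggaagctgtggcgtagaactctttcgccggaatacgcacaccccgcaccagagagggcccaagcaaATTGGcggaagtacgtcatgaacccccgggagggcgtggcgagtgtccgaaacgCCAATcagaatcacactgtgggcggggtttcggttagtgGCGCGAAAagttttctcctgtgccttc

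Cdk1, the kinase that starts mitosis, held all 3 elements, and its promoter is shown with 3 mitotic promoters for their CHR elements. These are Cdk1 (chr10:69352913-69353162, minus strand), Cdc20 (chr4:118437344-118437593, minus strand), the activator of the anaphase-promoting complex, Top2a (chr11:99024190-99024439, minus strand), topoisomerase II alpha, which untangles sister chromosomes, and Kif11 (chr19:37376132-37376381, plus strand), the motor that separates spindle poles. Capitals mark E2F and CHR elements and CCAAT boxes on either strand.
Cdk1: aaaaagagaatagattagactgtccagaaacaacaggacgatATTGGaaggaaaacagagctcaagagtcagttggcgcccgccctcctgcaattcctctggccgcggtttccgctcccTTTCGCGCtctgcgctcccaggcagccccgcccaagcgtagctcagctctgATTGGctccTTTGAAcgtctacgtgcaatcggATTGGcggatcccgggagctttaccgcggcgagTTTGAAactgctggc
Cdc20: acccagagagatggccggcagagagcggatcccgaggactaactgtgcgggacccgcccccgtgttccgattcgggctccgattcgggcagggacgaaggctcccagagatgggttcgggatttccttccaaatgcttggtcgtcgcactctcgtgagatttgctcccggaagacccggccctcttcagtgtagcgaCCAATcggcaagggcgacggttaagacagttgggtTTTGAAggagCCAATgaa
Top2a: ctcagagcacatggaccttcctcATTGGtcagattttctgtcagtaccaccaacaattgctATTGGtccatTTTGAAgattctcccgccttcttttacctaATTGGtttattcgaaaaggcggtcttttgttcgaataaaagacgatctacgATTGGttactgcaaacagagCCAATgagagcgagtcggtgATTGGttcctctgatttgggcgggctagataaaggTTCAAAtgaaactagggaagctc
Kif11: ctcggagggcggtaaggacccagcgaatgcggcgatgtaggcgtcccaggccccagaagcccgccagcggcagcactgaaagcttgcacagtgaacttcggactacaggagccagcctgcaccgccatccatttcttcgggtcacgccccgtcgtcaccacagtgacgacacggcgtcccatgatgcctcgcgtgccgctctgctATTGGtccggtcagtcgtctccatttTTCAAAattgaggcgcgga
Peaks within 1 kb of these starts were present in all 10 lists at Mcm5 and Kif11, in 9 lists at Orc1, Cdk1, Cdc20 and Top2a and in 8 lists at Mcm6. The list lacking one was RANKL+I-BET replicate 2 at Orc1, Cdc20 and Top2a and Untreated replicate 1 at Cdk1.

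Per-gene values below give kilobases covered within 25 kb, in the order of replicates 1, 2 and 3 within a group. Among the 12 licensing and helicase genes, gene-end peaks stood at 11, 3 and 10 with RANKL+I-BET, 11 in each RANKL list, 9 with I-BET and 9, 5 and 11 in Untreated cells. Cdt1, which loads the helicase together with Cdc6, was the most covered of all 45 members: 15.3, 4.67 and 13.3 kb in the RANKL+I-BET lists, 14.8, 43.7 and 16.8 kb in the RANKL lists, 15.7 kb in the I-BET list and 8.75, 7.48 and 15.1 kb in the Untreated lists. Cdc6 held 6.71, 1.49 and 6.58 kb in the RANKL+I-BET lists, 5.67, 36.5 and 5.18 kb in the RANKL lists, 4.97 kb in the I-BET list and 2.39, 1.6 and 4.22 kb in the Untreated lists. Both loaders were shortest in Untreated replicates 1 and 2 if RANKL+I-BET replicate 2 is set aside, and Cdc6 had no gene-end peak with I-BET.

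Mcm2, a helicase subunit, held 4.18, 0 and 3.76 kb in the RANKL+I-BET lists, 5.14, 30.5 and 4.26 kb in the RANKL lists, 2.33 kb in the I-BET list and 2.94, 0.54 and 3.68 kb in the Untreated lists. Mcm3 was among the least covered members, with 0.753, 0 and 0.627 kb in the RANKL+I-BET lists, 0.913, 5.92 and 1.09 kb in the RANKL lists, 0.554 kb in the I-BET list and 0, 0 and 0.706 kb in the Untreated lists. Mcm4, with an end within 1 kb of an end of the DNA repair gene Prkdc, held 1.67, 0 and 1.53 kb in the RANKL+I-BET lists, 1.36, 4.43 and 1.42 kb in the RANKL lists, 1.43 kb in the I-BET list and 0.321, 1.12 and 1.49 kb in the Untreated lists. At Mcm3 both RANKL lists numbered 1 and 3 lay above both Untreated lists, and at Mcm4 the groups overlapped. Mcm6 held 2.26, 0 and 0.548 kb in the RANKL+I-BET lists, 2.92, 5.92 and 0.674 kb in the RANKL lists, 0.725 kb in the I-BET list and 1.23, 0 and 2.46 kb in the Untreated lists. Mcm7 held 5.68, 0.513 and 4.14 kb in the RANKL+I-BET lists, 4.76, 17.2 and 5.19 kb in the RANKL lists, 4.79 kb in the I-BET list and 4.83, 2.91 and 4.7 kb in the Untreated lists. Mcm10, which helps to fire loaded helicases, held 1.19, 0 and 0 kb in the RANKL+I-BET lists, 1.01, 9.1 and 1.21 kb in the RANKL lists, 0.556 kb in the I-BET list and 0.65, 0 and 0.97 kb in the Untreated lists. Mcm6 differed several-fold between replicates 1 and 3 within both RANKL groups, and Mcm10 had no covered base in RANKL+I-BET replicate 3.

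Gmnn encodes geminin, the inhibitor of Cdt1, and held 1.46, 0 and 1.31 kb in the RANKL+I-BET lists, 0.809, 7.53 and 2.48 kb in the RANKL lists, 2.54 kb in the I-BET list and 0.731, 0 and 1.95 kb in the Untreated lists. Mcm5 and Cdc45, a partner of the helicase, kept gene-end peaks in every list and spanned 3.16 to 5.85 kb and 0.785 to 2.02 kb over the lists not numbered 2. Orc1 held 2.42, 0 and 2.27 kb in the RANKL+I-BET lists, 3.18, 10.7 and 2.75 kb in the RANKL lists, 1.5 kb in the I-BET list and 1.3, 1.06 and 2.85 kb in the Untreated lists. Orc1 (chr4:108575705-108616030) was the only member with no gene-end peak in any list. Its RefSeq start lies 3749 bp inside the lower end of the annotated gene, and a peak lay within 1 kb of that start in 9 lists. The peak at Orc1 thus lay beyond the 1 kb reach from the annotated end.

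The 4 fork and nucleotide genes kept gene-end peaks at 4, 2 and 4 genes with RANKL+I-BET, 4 in each RANKL list, 4 with I-BET and 3, 3 and 4 in Untreated cells. Pcna, the sliding clamp of DNA polymerases, held 4.64, 0.717 and 5.14 kb in the RANKL+I-BET lists, 4.98, 10.9 and 6.6 kb in the RANKL lists, 3.63 kb in the I-BET list and 3.62, 1.88 and 4.64 kb in the Untreated lists. Rrm1, the large subunit of ribonucleotide reductase, held 2.15, 0.261 and 2.19 kb in the RANKL+I-BET lists, 2.33, 11 and 2.62 kb in the RANKL lists, 1.27 kb in the I-BET list and 1.91, 0.207 and 1.72 kb in the Untreated lists. Rrm2, its small subunit, held 1.65, 0 and 2.92 kb in the RANKL+I-BET lists, 3.96, 16.8 and 4.59 kb in the RANKL lists, 3.39 kb in the I-BET list and 1.47, 0 and 4.27 kb in the Untreated lists. As deposited, Pcna and Rrm1 were longer in RANKL replicates 1 and 3 than in either Untreated counterpart (at 1 covered length the direction of Pcna turned), while Rrm2 overlapped, since Untreated replicate 3 lay between the RANKL values. Tyms encodes thymidylate synthase, which makes the thymidine precursor of DNA, and held 0.753, 0 and 0.707 kb in the RANKL+I-BET lists, 1.00, 12.4 and 1.83 kb in the RANKL lists, 1.27 kb in the I-BET list and 0, 0.209 and 0.694 kb in the Untreated lists. Tyms and Rrm2 were shorter in RANKL+I-BET replicates 1 and 3 than in RANKL replicates 1 and 3.

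Cyclin and kinase genes showed the widest gap between Untreated replicates. Of these 12 genes, gene-end peaks were present at 11, 2 and 11 with RANKL+I-BET, 12 in each RANKL list, 10 with I-BET and 4, 5 and 12 in Untreated cells. Ccna2, cyclin A2 of S phase, held 2.51, 0 and 1.41 kb in the RANKL+I-BET lists, 2.6, 3.76 and 2.48 kb in the RANKL lists, 2.02 kb in the I-BET list and 0, 0.261 and 1.58 kb in the Untreated lists. Ccnb1, a mitotic cyclin, held 1.39, 0.562 and 0.903 kb in the RANKL+I-BET lists, 1.53, 3.96 and 2.03 kb in the RANKL lists, 0.73 kb in the I-BET list and 0, 0.181 and 1.73 kb in the Untreated lists. Ccnb2, its relative, held 3.87, 0.426 and 1.94 kb in the RANKL+I-BET lists, 3.02, 14 and 2.59 kb in the RANKL lists, 2.62 kb in the I-BET list and 0.649, 0.515 and 1.45 kb in the Untreated lists. Neither Ccna2 nor Ccnb1 had a covered base in Untreated replicate 1, while Untreated replicate 3 held 1.58 and 1.73 kb.

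Ccne1, cyclin E1 of the G1 to S border, held 1.47, 0 and 1.38 kb in the RANKL+I-BET lists, 1.01, 11 and 1.35 kb in the RANKL lists, 0.28 kb in the I-BET list and 0.505, 0 and 1.27 kb in the Untreated lists. Ccne2, its paralog, held 2.00, 0 and 1.84 kb in the RANKL+I-BET lists, 2.47, 7.29 and 2.18 kb in the RANKL lists, 2.08 kb in the I-BET list and 0, 0.39 and 1.76 kb in the Untreated lists. Cdk1 held 1.87, 0.366 and 1.16 kb in the RANKL+I-BET lists, 1.63, 10.002 and 2.02 kb in the RANKL lists, 1.39 kb in the I-BET list and 0.57, 0.768 and 1.48 kb in the Untreated lists. Ccne2 repeated the pattern of Ccna2, and Cdk1 lay at 0.57 and 1.48 kb in Untreated replicates 1 and 3. Cdk2, the kinase partner of cyclins E and A, held 2.98, 0 and 2.34 kb in the RANKL+I-BET lists, 3.05, 13 and 3.19 kb in the RANKL lists, 2.41 kb in the I-BET list and 0.602, 1.39 and 1.91 kb in the Untreated lists. Cdc25a, a phosphatase that activates Cdk2, held 1.82, 0 and 2.35 kb in the RANKL+I-BET lists, 1.47, 12.4 and 2.39 kb in the RANKL lists, 2.14 kb in the I-BET list and 0.568, 0.218 and 1.45 kb in the Untreated lists. Cdc25b, which acts at the entry to mitosis, held 9.48, 1.35 and 6.55 kb in the RANKL+I-BET lists, 8.48, 28.3 and 9.55 kb in the RANKL lists, 6.92 kb in the I-BET list and 6.87, 5.95 and 7.42 kb in the Untreated lists. Cdc25b was the most covered gene of the group, and its RANKL over Untreated ratio was 0.31 on the log2 scale.

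Wee1, the kinase that restrains Cdk1, held 4.08, 0.43 and 4.47 kb in the RANKL+I-BET lists, 5.74, 15.1 and 4.9 kb in the RANKL lists, 3.24 kb in the I-BET list and 2.92, 0.653 and 5.5 kb in the Untreated lists. Chek1, the DNA damage checkpoint kinase, held 0.98, 0 and 0.948 kb in the RANKL+I-BET lists, 0.959, 1.09 and 1.39 kb in the RANKL lists, 0.622 kb in the I-BET list and 0.394, 0.26 and 1.15 kb in the Untreated lists. Cdc25c, the third phosphatase of the family, held 2.16, 0.608 and 1.96 kb in the RANKL+I-BET lists, 1.96, 10.6 and 3.06 kb in the RANKL lists, 1.98 kb in the I-BET list and 2.51, 0.805 and 2.63 kb in the Untreated lists. Wee1, Chek1 and Cdc25c overlapped in length between RANKL and Untreated lists. Cdc25c was the only member with a gene-end peak in all 3 RANKL lists and no RANKL+I-BET list, against 0.553% of 21887 genes. With peaks of a -log10 q of at least 5 it was not so called. Cdc25c (chr18:34732993-34751564) had a gene-end peak in the 3 RANKL lists with folds of 2.57, 11.3 and 5.46, and in Untreated replicates 1 and 3 with folds of 1.99 and 3.28. It had none in the 3 RANKL+I-BET lists, with I-BET alone or in Untreated replicate 2. In each RANKL list and in Untreated replicates 1 and 3 a peak lay at the upper end, between 17902 and 19235 bp from the lower end. RANKL replicate 2 had a further one at the lower end with a fold of 6.21. The upper-end peak was 183 bp wide with a -log10 q of 2.21 in RANKL replicate 1. It was 711 bp wide with a -log10 q of 12.4 in RANKL replicate 3.

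Among the 5 E2F and pocket protein genes, gene-end peaks were held by 5, 3 and 4 with RANKL+I-BET, 5 in each RANKL list, 4 with I-BET and 4 in each Untreated list. E2f1, an activator of S phase genes, held 2.46, 0.316 and 2.37 kb in the RANKL+I-BET lists, 3.13, 24 and 2.71 kb in the RANKL lists, 2.46 kb in the I-BET list and 1.74, 1.75 and 2.69 kb in the Untreated lists. E2f2 held 5.67, 0 and 6.21 kb in the RANKL+I-BET lists, 7.18, 34.3 and 7.5 kb in the RANKL lists, 7.38 kb in the I-BET list and 3.68, 2.03 and 6.51 kb in the Untreated lists. E2f3, the third activating member, held 3.39, 0.948 and 3.12 kb in the RANKL+I-BET lists, 2.36, 13.9 and 2.99 kb in the RANKL lists, 3.35 kb in the I-BET list and 1.64, 1.24 and 2.03 kb in the Untreated lists. All 3 were longer in RANKL replicates 1 and 3 than in Untreated replicates 1 and 3, with ratios of 0.35, 0.53 and 0.44 on the log2 scale against 0.43 for the median gene. Rbl1 encodes the pocket protein p107 and spanned 5.05 to 8.11 kb over the lists not numbered 2.

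Rb1, the retinoblastoma gene whose product restrains E2F, held 10.9, 1.37 and 6.69 kb in the RANKL+I-BET lists, 12.3, 15.7 and 8.12 kb in the RANKL lists, 8.93 kb in the I-BET list and 5.13, 3.88 and 6.58 kb in the Untreated lists. Rb1 (chr14:73192858-73325951) was the only member with a gene-end peak in the 3 RANKL lists and in none of the 3 Untreated lists, against 1.49% of 21887 genes. That peak lay at its upper end, with folds of 2.64 in RANKL+I-BET replicate 1 and 2.89, 1.69 and 2.46 in RANKL replicates 1, 2 and 3. RANKL+I-BET replicates 2 and 3, I-BET and the 3 Untreated lists held none there. A further peak 29180 to 30601 bp from the lower end was present in the 7 lists not numbered 2, with folds of 4.11 and 2.27 in RANKL+I-BET replicates 1 and 3, 3.94 and 6.14 in RANKL replicates 1 and 3, 2.14 with I-BET and 2.39 and 1.89 in Untreated replicates 1 and 3. Another stretch, 44647 to 47556 bp from the lower end, lies at Lpar6, a receptor gene nested in Rb1, and held a peak in all 10 lists. The 2 inner peaks were thus found in lists of every group, and the upper-end peak in the RANKL lists and RANKL+I-BET replicate 1. Its -log10 q was 2.76, 1.80 and 2.91 in RANKL replicates 1, 2 and 3 and 1.77 in RANKL+I-BET replicate 1. All of these lay under the stricter cutoff of 5.

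**Figure D4:**
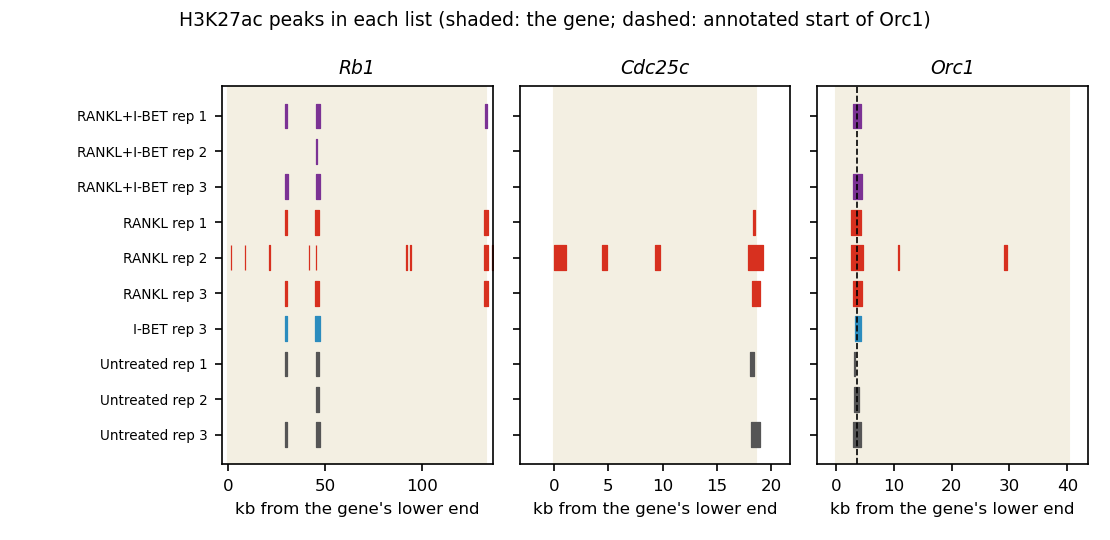
Peaks of each list (rows) drawn to scale in kb from the lower end of Rb1, Cdc25c and Orc1 (horizontal axes), with the gene shaded and the start of Orc1 dashed. Rb1 shows its upper-end peak in the 3 RANKL lists and RANKL+I-BET replicate 1, Cdc25c lacks its upper-end peak in the RANKL+I-BET and I-BET lists, and Orc1 is marked at its start in 9 of 10 lists.

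The 12 mitotic genes held gene-end peaks at 12, 6 and 12 with RANKL+I-BET, 12 in each RANKL list, 12 with I-BET and 9, 8 and 12 in Untreated cells. Birc5, survivin of the chromosomal passenger complex, held 10.4, 0.522 and 7.67 kb in the RANKL+I-BET lists, 9.69, 40.6 and 11.1 kb in the RANKL lists, 8.74 kb in the I-BET list and 7.83, 3.12 and 9.08 kb in the Untreated lists. Aurkb, the kinase of that complex, held 12, 1.09 and 9.3 kb in the RANKL+I-BET lists, 10.1, 20.8 and 9.995 kb in the RANKL lists, 7.06 kb in the I-BET list and 6.41, 4.99 and 7.56 kb in the Untreated lists. Aurka, the spindle pole kinase, spanned 4.55 to 7.46 kb over the lists not numbered 2. Plk1, the polo kinase of mitotic entry, held 1.2, 0 and 1.94 kb in the RANKL+I-BET lists, 1.51, 13 and 1.72 kb in the RANKL lists, 1.86 kb in the I-BET list and 0, 0.439 and 1.29 kb in the Untreated lists. Birc5 and Aurkb were the most covered mitotic genes, and Plk1 had no covered base in Untreated replicate 1.

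The checkpoint genes Bub1, Bub1b and Mad2l1 delay anaphase until every chromosome is attached. Bub1 held 1.91, 0 and 1.38 kb in the RANKL+I-BET lists, 2.29, 6.3 and 1.79 kb in the RANKL lists, 1.5 kb in the I-BET list and 1.04, 0 and 1.8 kb in the Untreated lists. Bub1b held 2.76, 0 and 0.631 kb in the RANKL+I-BET lists, 1.07, 10.4 and 1.17 kb in the RANKL lists, 2.81 kb in the I-BET list and 0.865, 0 and 0.621 kb in the Untreated lists. Mad2l1, the least covered member on average over the lists numbered 1 and 3, held 0.472, 0 and 0.954 kb in the RANKL+I-BET lists, 1.33, 2.49 and 0.541 kb in the RANKL lists, 0.603 kb in the I-BET list and 0, 0 and 0.415 kb in the Untreated lists. Bub1b was long in RANKL+I-BET replicate 1 and with I-BET, and short in RANKL+I-BET replicate 3, so replicates of the combined treatment did not match each other. Cdc20 held 3.72, 0.753 and 3.46 kb in the RANKL+I-BET lists, 3.43, 16.3 and 4.04 kb in the RANKL lists, 3.08 kb in the I-BET list and 2.94, 1.98 and 3.99 kb in the Untreated lists. Top2a held 3.36, 0 and 2.97 kb in the RANKL+I-BET lists, 3.9, 27.5 and 3.24 kb in the RANKL lists, 1.67 kb in the I-BET list and 1.26, 1.62 and 3.57 kb in the Untreated lists. Kif11 held 6.01, 0.388 and 5.57 kb in the RANKL+I-BET lists, 5.77, 10.8 and 5.53 kb in the RANKL lists, 4.71 kb in the I-BET list and 4.33, 1.63 and 5.09 kb in the Untreated lists. Over the lists not numbered 2, Cdc20 stayed between 2.94 and 4.04 kb and Kif11 between 4.33 and 6.01 kb, and Top2a was lowest in Untreated replicate 1 and with I-BET.

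Mki67, the gene of the proliferation antigen Ki-67, held 2.79, 0.718 and 1.23 kb in the RANKL+I-BET lists, 1.43, 15.5 and 1.82 kb in the RANKL lists, 1.25 kb in the I-BET list and 4.25, 0.818 and 1.92 kb in the Untreated lists. Tpx2, which recruits Aurora A to spindle microtubules, held 4.42, 1.02 and 4.6 kb in the RANKL+I-BET lists, 3.89, 26.4 and 4.02 kb in the RANKL lists, 3.39 kb in the I-BET list and 4.13, 0.274 and 2.29 kb in the Untreated lists. Mki67 was the only member covered over less length in both RANKL replicates 1 and 3 than in both Untreated ones, against 1.29% of genes, and Untreated replicate 1 carried the highest of these values.

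RANKL was set against Untreated cells to ask how acetylation at this machinery stands 4 h into osteoclast induction. In presence, 1 of 45 members, Rb1, had a gene-end peak in all 3 RANKL lists and no Untreated list, against 1.49% of 21887 genes, and 0 members had the reverse, against 0% of genes. Rb1 was not among the members so called with peaks of a -log10 q of at least 5, which were Mcm7, Cdt1, Cdk2 and E2f1. No share of all genes is given for that call. Peaks of that q stood at 31.0%, 40.2% and 35.8% of all genes with a gene-end peak in the RANKL lists. In the Untreated lists they stood at 3.91%, 1.84% and 21.0%, so the lists differed in this over all genes. In covered length of replicates 1 and 3, RANKL lay above Untreated without overlap at 27 of 45 members, against 53.0% of 12139 genes compared, and below at 1 member, Mki67, against 1.29%. The members' count was near the background in both directions. The median log2 ratio of length plus 500 bp was 0.44 over members and 0.43 over all genes, and 42 of 45 members were above 0.

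The largest ratios among members that did not overlap were 1.57 for Ccna2, 1.41 for Ccne2, 1.28 for Tyms, 1.16 for Plk1 and 1.15 for Cdk2 on the log2 scale, and Mki67 had -0.68. Each of the 5 had at most 0.602 kb in Untreated replicate 1. They encode cyclins and a cyclin-dependent kinase, a nucleotide enzyme and a mitotic kinase. By replicate number, the median ratio over members was 1.64 for number 1, 11.1 for number 2 and 1.19 for number 3, and over all genes it was 1.47, 10.3 and 1.22. Without Untreated replicate 3, 9 members had a gene-end peak in the 3 RANKL lists and neither remaining Untreated list, against 1 with it. They were Mcm3, Cdc6, Ccna2, Ccnb2, Ccne2, Bub1b, Mad2l1, Rb1 and Wee1. No share of all genes is given for that rule, so the 9 cannot be set against a background.

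List length moves with these ratios, so lists were also reduced to 1 covered length of 16.1 Mb by keeping their strongest peaks. Untreated replicate 1 set that length and kept all its 16364 peaks, down to a -log10 p of 0.919. Cutoffs were 3.36 in Untreated replicate 3, 4.22 and 4.57 in RANKL replicates 1 and 3 and 4.17 and 3.50 in RANKL+I-BET replicates 1 and 3. Equally strong peaks could thus be kept in Untreated replicate 1 and dropped elsewhere. That shifted the median gene to 0.03 in place of 0.43, and the median of the 41 members tested there was 0.24, with 22 above 0 and 19 below. At this length 9 of the 27 members (Pcna, Mcm2, Cdc6, Cdc25b, Ccnb2, Aurka, Bub1b, Birc5 and Rbl1) had the opposite sign. At this length limma tested 10946 genes, 41 members among them, and called 0 genes at an adjusted p of 0.05, with 575 genes (5.25%) and 4 members at an unadjusted p under 0.05. The lowest adjusted p of a member was 0.905, for Pcna, Cdc20 and Cdc6. Pcna had a log2 ratio of -2.80 (SE 0.57, limma adjusted p = 0.905) in that fit, where its RANKL lists kept 0 and 0.37 kb and its Untreated lists 3.62 and 4.64 kb. The peak at the Pcna start was dropped in RANKL replicate 1 at a -log10 p of 3.49. It was kept in Untreated replicate 1 at 3.43. As deposited the ratio of Pcna was 0.44, so its direction depends on the scaling.

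RANKL+I-BET was set against RANKL to ask how BET inhibition alters the RANKL state, with the same RANKL lists as above. In presence, 1 of 45 members, Cdc25c, had a gene-end peak in all 3 RANKL lists and no RANKL+I-BET list, against 0.553% of 21887 genes, and 0 members had the reverse, against 0% of genes. With peaks of a -log10 q of at least 5 the members so called were Mcm7 and E2f1, and Cdc25c was not among them. No share of all genes is given for that call. Peaks of that q stood at 28.2%, 18.5% and 23.5% of all genes with a gene-end peak in the RANKL+I-BET lists. In the RANKL lists they stood at 31.0%, 40.2% and 35.8%. In covered length of replicates 1 and 3, RANKL+I-BET lay above RANKL without overlap at 5 of 45 members, against 6.27% of 12398 genes, and below at 12 members, against 29.7%. The share of members below was near the background. The share above was larger than that of all genes but rested on 5 members, and the difference was not tested. Above were Mcm4, Cdc6, Ccne1, E2f3 and Tpx2, and below were Mcm2, Mcm3, Ccnb1, Ccne2, Cdk2, Rrm1, Rrm2, Tyms, E2f1, E2f2, Wee1 and Orc1. The median log2 ratio was -0.18 over members and -0.14 over all genes, with 10 members above 0 and 35 below.

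The lowest ratios without overlap were -0.81 for Rrm2, -0.60 for Tyms, -0.47 for Ccnb1, -0.33 for Mcm3 and -0.28 for E2f2. Rrm2 and Tyms, which supply nucleotides, thus stood lowest among members without overlap. Rrm1, the large subunit of the same reductase as Rrm2, was also without overlap, at -0.16 beside -0.14 for all genes. Mcm10, whose groups overlapped, had -0.80. The highest without overlap were 0.27 for Cdc6, 0.25 for E2f3, 0.20 for Ccne1, 0.17 for Tpx2 and 0.15 for Mcm4. By replicate number, the members' median ratio was 1.02 for number 1, 0.0662 for number 2 and 0.834 for number 3, and over all genes it was 0.982, 0.0691 and 0.844. Without RANKL+I-BET replicate 1, Mcm10, Cdc25c and Rb1 had a gene-end peak in all RANKL lists and neither remaining RANKL+I-BET list. These were 3 members against 1 with replicate 1 included. No share of all genes is given for that rule, so the 3 cannot be set against a background.

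At 1 covered length the median gene lay at -0.00063 in place of -0.14 and the median of the 41 members tested at -0.15, with 18 above 0 and 23 below. There, 3 of the 12 lower members (Mcm2, Ccne2 and Orc1) had the opposite sign. limma called 0 genes, with 752 genes (6.87%) and 4 members at an unadjusted p under 0.05. Cdc6 had a log2 ratio of 1.94 (SE 0.51, limma adjusted p = 0.580), with 0.27 as deposited. Cdc20 had 2.26 (SE 0.68, limma adjusted p = 0.586), with -0.05 as deposited.

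RANKL+I-BET was then set against Untreated cells, with lists that both earlier comparisons had used. In presence of gene-end peaks, 0 members were held by all 3 lists of 1 group and none of the other, against 0.0366% of genes higher and 0.0137% lower. In covered length of replicates 1 and 3, RANKL+I-BET lay above Untreated without overlap at 17 of 44 members compared, against 34.7% of 11809 genes, and below at 1 member, Cdc25c, against 2.89%. Both shares were near the background. The median log2 ratio was 0.28 over members and 0.28 over all genes, with 39 members above 0 and 5 below. The largest ratios without overlap were 1.19 for Ccne2, 1.12 for Ccnb2, 0.95 for Cdc6, 0.95 for Cdk2 and 0.84 for Cdc25a, while Cdc25c had -0.26.

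At 1 covered length the median gene lay at 0.03 and the median of the 41 members tested at 0.03, and Pcna, Mcm4, Cdc25a and Ccnb2 had the opposite sign among the longer members. limma called 0 genes, with 333 genes (3.04%) and 1 member, Ccne2, at an unadjusted p under 0.05. Ccne2 had a log2 ratio of 2.27 (SE 0.88, limma adjusted p = 1.00) in that fit.

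**Figure D5:**
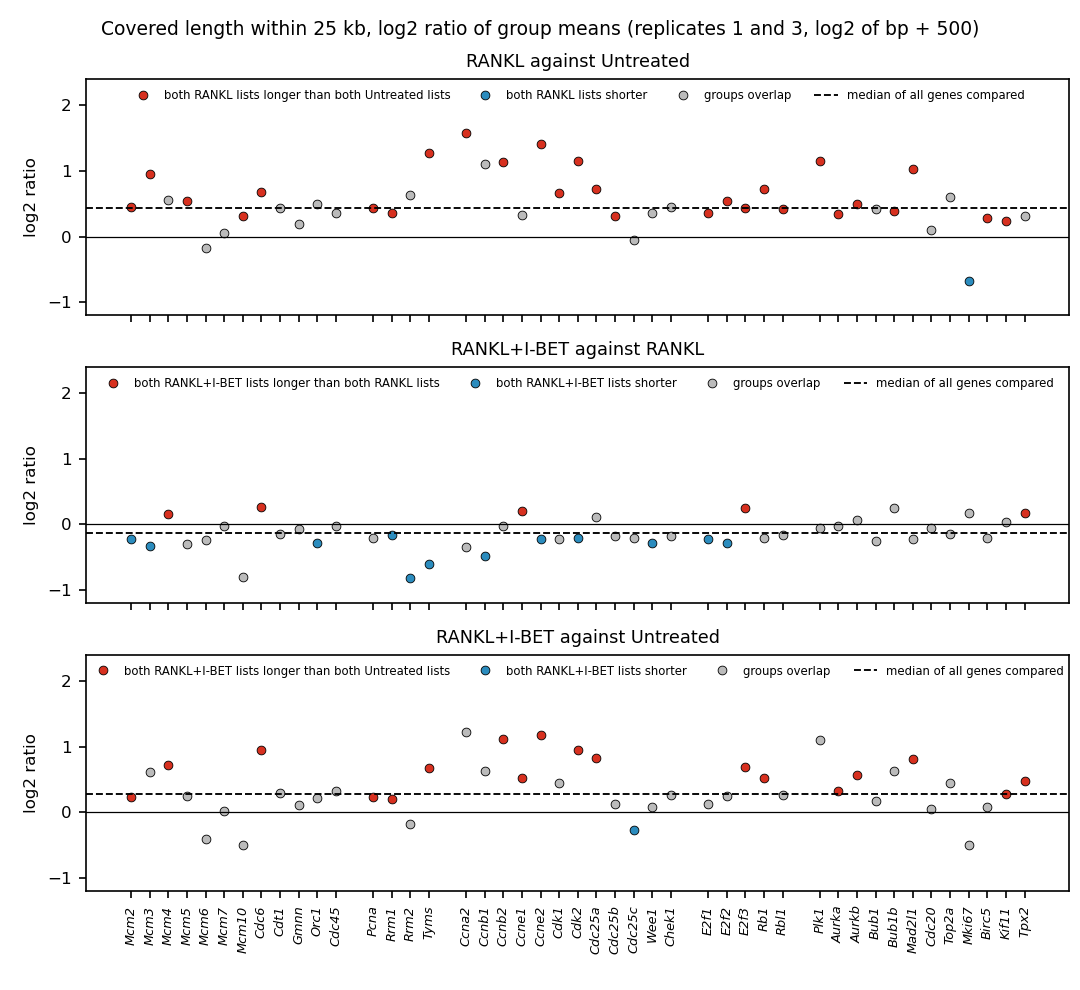
Log2 ratio of covered length plus 500 bp (vertical axes) for each of the 45 members (horizontal axis, by role) in the 3 comparisons, as means of replicates 1 and 3; red and blue points do not overlap between groups, grey points do, and the dashed line is the median gene. Members scatter around the dashed lines at 0.43, -0.14 and 0.28, and Mad2l1 in the lowest panel was drawn although its mean length was under the 500 bp needed for the counts.

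I-BET alone has 1 list, so it was set beside Untreated replicate 3, which carries its number, with no replicate check and no test. Past 1.5-fold in length plus 500 bp, 3 of 45 members were higher with I-BET, against 7.74% of 12076 genes, and 6 were lower, against 12.5%. Higher were Bub1b at a ratio of 2.95, Ccnb2 at 1.60 and E2f3 at 1.52. Lower were Mcm6 at 0.413, Ccne1 at 0.442, Top2a at 0.533, Ccnb1 at 0.551, Orc1 at 0.596 and Wee1 at 0.624. In both directions the members were near the background. The median ratio was 0.938 over members and 0.976 over all genes. No gene-end peak was present with I-BET at 4 of the 43 members that had one in Untreated replicate 3, against 12.1% of 8242 genes, namely Mcm2, Cdc6, Cdc25c and Ccna2.

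Other genes of the same machinery, listed by function, also held gene-end peaks at most genes in each RANKL list and at the fewest in RANKL+I-BET replicate 2. Among 40 other replication genes (further subunits of the origin complex, polymerases and clamp loaders), 37, 8 and 34 held one with RANKL+I-BET, 37, 39 and 37 with RANKL, 28 with I-BET and 24, 20 and 36 in Untreated cells. Among 40 other mitosis genes (condensins, kinetochore proteins and spindle motors), the counts were 39, 16 and 38 with RANKL+I-BET, 39, 40 and 40 with RANKL, 37 with I-BET and 23, 27 and 37 in Untreated cells. Among 20 other E2F, DREAM and checkpoint genes they were 17, 2 and 17 with RANKL+I-BET, 20, 20 and 19 with RANKL, 16 with I-BET and 11, 10 and 17 in Untreated cells. Each of the 3 gene lists had fewer peaks in Untreated replicates 1 and 2 than in Untreated replicate 3, as the members had.

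A gene-end peak in all 3 RANKL lists and no Untreated list was found at 1.49% of all genes. Of the 40 replication genes it was found at Gins4, a helicase partner, and of the 40 mitosis genes at Ttk, Kif4 and Ska1. Of the 20 E2F, DREAM and checkpoint genes it was found at Rbl2 and Lin54. Whether these lists differ from all genes was not tested. Rbl2, the pocket protein p130, also lacked the peak in the 3 RANKL+I-BET lists. Presence in all 3 RANKL lists and no RANKL+I-BET list was found at 0.553% of all genes. The median log2 ratios of RANKL over Untreated for the 3 lists were 0.51, 0.53 and 0.47, and those of RANKL+I-BET over RANKL were -0.20, -0.16 and -0.15, beside 0.43 and -0.14 for all genes. limma called 0 of them.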

How the data were processed

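H3K27ac libraries of RAW264.7 cells were analysed as 10 deposited peak lists, and 10 input samples were left out. FastQC, Bowtie2, MACS2 and the build mm10 (GRCm38) are named in the submitters' processing notes; versions, settings and the control used are not given in the sources used here. The authors' deposited score is 10 times the -log10 q, truncated to a whole number. Its deposited fold enrichment is a linear ratio, and its deposited p-value and q-value are given as -log10. No list holds counts, so the depth, and with it the precision that depth sets, is unknown.

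Genes were the 21887 protein-coding genes of RefSeq GRCm38.p6 (the gene table gives no strand), and promoters came from the RefSeq table of the same build (17492 genes, 36 members). For each gene and list, peaks within 1 kb of either end and base pairs covered within 25 kb were taken, with the highest fold among gene-end peaks. Ratios are of log2 (length + 500 bp), for genes with a mean of at least 500 bp. A comparison was called without overlap when every list of a group exceeded every list of the other. For limma 3.58.1 (R 4.3.3), the 6 lists numbered 1 and 3 were reduced to their peaks with the highest -log10 p until each covered 16.1 Mb, the 3 groups were fitted together with a trended prior, and Benjamini-Hochberg adjustment ran over 10946 genes. Since the labels name no separate cultures, a p-value here measures the spread between these samples alone. Exact tests of 3 against 3 lists cannot go below 0.1 and were not used.

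Replicate numbers come from the labels, which do not say what a number marks. Deviations from the group means correlated between same-numbered lists in all 9 pairs, by 0.148 to 0.583 over 15793 genes, so the numbers were taken to pair the samples. The main limma fit, with every SE and p-value of the results, and the counts without overlap left this pairing out. A fit with the replicate number as a block was run as an alternative.

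The members and the lists were chosen with earlier results of these data known. Per-sample values were given for members without a gene-end peak in some list, the most and least covered member of each role, up to 5 members with the largest ratios without overlap per comparison and direction, members past 1.5-fold with I-BET, and 9 members always given (Pcna, Cdc20, Mcm2, Mki67, Top2a, Ccnb1, E2f1, Rb1 and Cdk1). Alternatives were peaks with a -log10 q of at least 5, other windows and filters, 1 covered length for all lists, all 3 replicates, presence at annotated starts (added after seeing the data) and each list left out in turn. The code was tested on simulated data.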

Additional observations from a re-analysis of the deposited data

How the results depend on the processing

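limma called 0 members in each comparison under every alternative run, the fit with the replicate block included, where the smallest adjusted p of a member was 0.899 for RANKL against Untreated and 0.690 for RANKL+I-BET against RANKL (block 0 members called in each comparison). With a list left out, 1 group rested on a lone list assumed to vary like the other groups. Those fits also called 0 members, which in so small a design says nothing about stability. Of the alternatives of all results, 133 gave the same reading, 45 moved and 1 reversed, and the cause was not tested. The 133 include every limma alternative, where 0 calls stayed 0, so that number does not measure how stable the other results are.

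Members with a gene-end peak in every list of a group and none of the other numbered 1 for RANKL against Untreated, 4 with peaks of a -log10 q of at least 5 (Mcm7, Cdt1, Cdk2 and E2f1), 2 at 1 covered length for 9 lists (Top2a and Chek1, held in Untreated lists), 0 at annotated starts (Rb1 has none in the table, and was not among those named) and 1 to 9 with a list left out. RANKL+I-BET against RANKL gave 1, with 2 (Mcm7 and E2f1), 0 and 0 under these alternatives (Cdc25c has no start in the table) and 1 to 3 with a list left out, and RANKL+I-BET against Untreated gave 0, with 1 in replicates 1 and 3 alone, 2 at 1 covered length (Top2a and Chek1) and 0 to 1 with a list left out. Shares of all genes are not given under these alternatives, so these presence counts cannot be set against a background. The median log2 ratio of RANKL over Untreated was 1.49 with all 3 replicates and 1.08 at the stricter q, and 0.23 to 0.73 with a list left out. That of RANKL+I-BET over RANKL was -1.37 with all 3 replicates and -0.24 to -0.045 with a list left out. That of RANKL+I-BET over Untreated reversed to -0.022 with all 3 replicates. It was 0.62 at the stricter q and 0.07 to 0.55 with a list left out. With all 3 replicates the medians over all genes were 1.46 for RANKL over Untreated and -1.47 for RANKL+I-BET over RANKL. For RANKL+I-BET over Untreated that median was -0.03, so the whole lists moved as the members did. With 9 lists at 1 covered length, the median over the 20 members tested turned to -0.79 for RANKL against Untreated (all genes -0.24), 0.67 for RANKL+I-BET against RANKL (all genes 0.27) and -0.36 for RANKL+I-BET against Untreated (all genes 0).

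Members without overlap in length numbered 17 for RANKL against Untreated at 1 covered length, 9 at the stricter q and 16 in a 1 kb window. They numbered 9 at the stricter q for RANKL+I-BET against RANKL, and 0 with all 3 replicates, 4 at the stricter q and 12 in a 1 kb window for RANKL+I-BET against Untreated. For I-BET, 3 members passed 2-fold and 22 passed 1.5-fold at the stricter q. These counts without overlap and past a fold are given over members alone, so they cannot be set against a share of all genes. Members with a gene-end peak at the stricter q numbered 12, 0 and 7 with RANKL+I-BET, 12, 20 and 19 with RANKL, 7 with I-BET and 1, 0 and 12 in Untreated cells. At 1 covered length for all 10 lists they numbered 6, 16 and 7 with RANKL+I-BET, 8, 0 and 8 with RANKL, 9 with I-BET and 7, 15 and 12 in Untreated cells. Depth, unknown here, limits every absence of a peak.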

Other observations

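Stronger gene-end peaks, those with a deposited -log10 q of at least 5, were held by 12, 0 and 7 members with RANKL+I-BET, 12, 20 and 19 with RANKL, 7 with I-BET and 1, 0 and 12 in Untreated cells. As a share of the members with a gene-end peak, these were 27.9%, 0% and 17.1% with RANKL+I-BET, 27.3%, 45.5% and 43.2% with RANKL, 17.9% with I-BET and 3.45%, 0% and 27.9% in Untreated cells. The same shares of all genes with a gene-end peak were 28.2%, 18.5% and 23.5% with RANKL+I-BET, 31.0%, 40.2% and 35.8% with RANKL, 15.7% with I-BET and 3.91%, 1.84% and 21.0% in Untreated cells. The member named in Untreated replicate 1 was Chek1, and in Untreated replicate 3 the 12 included the helicase genes Mcm2, Mcm3 and Mcm4 and the kinase genes Aurka, Chek1 and Wee1. With RANKL replicate 3 the 19 included the spindle checkpoint genes Bub1, Bub1b and Mad2l1, none of which was among the 12 of RANKL replicate 1.

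At 9 members an end lay within 1 kb of another gene's end, so a gene-end peak there cannot be given to 1 gene. They were Pcna (with Cds2 and Tmem230), Mcm4 (Prkdc), Mcm7 (Ap4m1 and Cops6), Cdc20 (Elovl1), Cdc45 (Ufd1), Ccna2 (Bbs7 and Exosc9), Plk1 (Ern2), Aurka (Cstf1 and Fam210b) and E2f1 (Necab3). No pair of members had overlapping windows.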
